A study of Mus musculus with 2 samples.

Results

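Helper T cells are told apart by the cytokines they secrete, and the genes of 10 such signature cytokines were examined in RNA of regulatory T cells (Tregs) sorted from injured mouse kidney. They were Ifng, the cytokine of type 1 helper cells, Il4, Il5 and Il13 of type 2, Il9 of type 9, Il17a, Il17f and Il22 of type 17, Il21 of follicular helper cells, and Il2, the T cell growth factor. The genes were chosen by name, and a probe was assigned to one of them where its RefSeq accession carried that symbol. This gave 13 of 56605 probes and 10 of 22911 named genes, with 1 probe for each of 7 genes and 2 probes each for Il2, Il21 and Il22. The Tregs were isolated on day 28 after cGN, a kidney injury caused by antibody to the basement membrane of the glomerulus (anti-GBM). They were gated as CD45+CD3e+CD4+ cells with FoxP3-hCD2, a reporter that puts human CD2 on cells expressing Foxp3. Their RNA was hybridised to 2 single-colour arrays, one for anti-GBM lot M and one for lot I, and both groups had cGN. The labels used here give no strain, age or number of animals, so whether an array holds RNA of one mouse or a pool is not known, and no kidney without cGN and no other T cell population was analysed here. The sample titles number the arrays as replicates of one condition, cGN, while the labels also give them different antibody lots. The difference between them therefore holds the lot and the spread between samples together, which cannot be told apart, and each difference describes these arrays, with no test.

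Helper cytokine genes are largely silent in resting T cells and are transcribed after the T cell receptor is engaged, when NFAT and AP-1 factors act together with a factor that marks the lineage, such as Tbx21 for type 1, Gata3 for type 2 and Bcl6 for follicular helper cells. Foxp3, the lineage factor of Tregs, is known to restrain several of these genes, among them Il2 and Ifng. Tregs in tissues can still share a lineage factor, and in part a cytokine, with the helper cells around them.

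The lot of each array is recorded in opposite ways by the deposited sources, so the arrays are named by number. Array 2 is recorded under lot M and array 1 under lot I in the scanner output. In the value table the lots are swapped, since the log2 ratio of signal to value had an SD of 0.000321 and 0.000402 over probes for the crossed columns, against 0.181 and 0.156 for the columns of the same lot. Every difference is given on the log2 scale as array 2 minus array 1. Whether that means lot M over lot I, as the scanner files have it, or the reverse, as the value table has it, was not settled. On array 2, 30558 probes (54.0%) were well above background by the scanner's own flag, and on array 1, 30576 (54.0%). The lowest signal that carried this flag, the detection floor, was 11.7 on array 2 and 11.6 on array 1, and the highest signal without it was 14.6 and 14.9. The 308 negative control spots had a median signal of 2.56 on array 2 and 2.58 on array 1. One of them was itself well above background on each array, at 35.7 on array 2 and 223 on array 1, while the next highest stood at 11.5 and 6.49. The genes that define the sorted cells were present, with all 10 T cell identity genes and all 10 Treg genes well above background on both arrays. Foxp3 stood at 4.74 on array 2 and 4.92 on array 1, Cd3e at 5.58 and 5.47, and Cd4 at 3.20 and 3.21. These levels are log2 of the signal over the array's 75th percentile of probes.

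Of the 10 cytokine genes, 6 were well above background on both arrays and 4 on neither. The 6 were Ifng, Il4, Il5, Il13, Il2 and Il21, and the 4 were Il9, Il17a, Il17f and Il22. Over all named genes 60% were well above background on both arrays, so the count for the cytokines was the same share as for genes in general. At 4 times the floor 3 of the 10 passed (Ifng, Il4 and Il21), a share of 30%, beside 51.6% of all named genes. Above the highest negative control spot 2 passed (Ifng and Il4), a share of 20%, beside 40.4% of all. Above the median plus 3 SD of these spots 3 passed, beside 53.3% of all. Without the 1 bright negative control spot per array, the last 2 rules each passed 6, beside 61.9% and 67.3% of all. With the scanner's flag for a positive and significant signal 7 passed, beside 70.4%, and 4 passed where every probe of a gene had to, beside 53.8%. What set the 6 genes apart from each other was how far they stood above the floor of the array. Ifng and Il4 were bright, at signals of 543 or more, whereas the signals of Il5, Il13, Il2 and Il21 all lay under 60. A probe's brightness also depends on its sequence, so the signals of different genes were not ranked against each other as amounts of RNA. In RNA of a sorted population, fewer cells that transcribe a gene and less RNA per cell cannot be told apart.

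The promoters of 4 of the genes are shown because they stand for the 3 outcomes, bright (Ifng, Il4), dim (Il13, the neighbour of Il4 with no gene between them) and not well above background (Il17a). All are 300-base windows of RefSeq, build GRCm38.p6, with 250 bases before the gene start and 50 after it, written in the direction of transcription. Capitals mark GGAAA, the core that NFAT factors bind, the word GATAA that GATA factors bind, and the AP-1 word TGAGTCA. Each was searched on both strands, so GGAAA can also appear as TTTCC, and words of different kinds did not overlap in these windows.
Ifng promoter, chr10:118440796-118441095, strand +: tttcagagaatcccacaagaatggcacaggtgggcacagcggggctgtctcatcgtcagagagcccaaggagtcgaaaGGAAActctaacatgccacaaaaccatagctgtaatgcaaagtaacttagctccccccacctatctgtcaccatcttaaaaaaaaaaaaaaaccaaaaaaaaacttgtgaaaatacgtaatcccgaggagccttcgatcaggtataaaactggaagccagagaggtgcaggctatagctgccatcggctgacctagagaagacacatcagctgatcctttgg 
Il4 promoter, chr11:53618616-53618915, strand -: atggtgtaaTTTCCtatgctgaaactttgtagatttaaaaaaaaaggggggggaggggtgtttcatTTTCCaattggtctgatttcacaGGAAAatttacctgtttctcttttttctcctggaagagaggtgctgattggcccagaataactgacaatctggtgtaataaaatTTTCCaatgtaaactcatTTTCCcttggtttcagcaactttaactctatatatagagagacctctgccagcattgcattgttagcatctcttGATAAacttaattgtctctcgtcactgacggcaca 
Il13 promoter, chr11:53634653-53634952, strand -: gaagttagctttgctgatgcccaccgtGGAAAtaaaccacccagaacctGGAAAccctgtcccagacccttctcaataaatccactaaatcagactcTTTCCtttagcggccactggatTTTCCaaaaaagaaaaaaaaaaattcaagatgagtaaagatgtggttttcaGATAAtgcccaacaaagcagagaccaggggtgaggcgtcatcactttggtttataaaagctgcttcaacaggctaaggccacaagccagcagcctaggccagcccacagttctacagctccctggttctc 
Il17a promoter, chr1:20730655-20730954, strand +: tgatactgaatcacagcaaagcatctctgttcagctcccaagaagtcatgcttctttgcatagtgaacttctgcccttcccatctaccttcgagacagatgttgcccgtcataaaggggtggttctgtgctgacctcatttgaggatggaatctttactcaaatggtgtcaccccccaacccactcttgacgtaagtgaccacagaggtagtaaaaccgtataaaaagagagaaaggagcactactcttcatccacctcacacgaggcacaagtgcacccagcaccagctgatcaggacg

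The window of Il4 held 5 GGAAA cores and 1 GATAA word, that of Il13 held 4 and 1, and that of Ifng 1 and 0, while that of Il17a held 0 of each. None of these 4 held an AP-1 word. The other genes not well above background, whose windows are not shown, did hold some of these words. The window of Il9 held 3 GGAAA cores and 1 AP-1 word, that of Il17f 2 cores, and that of Il22 1 core and 2 GATAA words. The windows of Il17f and Il22 were not placed at the annotated gene start. Over all 32851 promoter windows of this length, 61.3% held a GGAAA core, 25.4% a GATAA word and 5.20% an AP-1 word. These matches describe letters in the windows and not binding, and the windows of Il4 and Il13, one bright and one dim, held similar numbers of each word.

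Ifng encodes interferon gamma, which activates macrophages and raises antigen presentation. Its probe A_52_P68893 had a processed signal of 3539 ± 354 on array 2 and 4009 ± 401 on array 1 (± the scanner's error for the spot, here and below). The raw spot medians were 3930 on array 2 and 4444.5 on array 1, over a local background of 28 and 29. No negative control spot reached this signal on either array. The level was 3.66 on array 2 and 3.81 on array 1, a difference of -0.15 ± 0.20, which is smaller than its own error. Tbx21, the transcription factor of type 1 helper cells, was also well above background, at 3.45 on array 2 and 3.73 on array 1 (-0.28 ± 0.20).

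Genes that interferon gamma induces were for the most part present in the same RNA. Of 21 with a probe, 20 were measured on both arrays (well above background on each), 18 of them lower in array 2, and their median difference was -0.17. Well above background on both arrays were 60% of all named genes. Over all 13743 genes measured on both arrays 6354 (46.2%) were lower in array 2 and the median was 0.01. The T cell identity and Treg lists each had 7 of 10 genes lower in array 2, with medians of -0.02 and -0.04. The proximal tubule list had 1 of 10 lower. The largest differences among the genes induced by interferon gamma were -0.69 ± 0.21 for Cxcl9, a chemokine that attracts CXCR3-bearing T cells, -0.41 ± 0.20 for the GTPase gene Iigp1 and -0.29 ± 0.20 for Gbp4. Of these induced genes only Ido1, an enzyme that degrades tryptophan, was well above background on neither array. Both chains of the receptor, Ifngr1 (5.91 on array 2 and 5.97 on array 1) and Ifngr2 (0.90 on each), were well above background.

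The type 2 genes Il4, Il13 and Il5 lie in one cluster on chromosome 11, with the gene Rad50 between Il13 and Il5, and all 3 were detected. Il4, which drives the type 2 fate and antibody class switching, had a signal of 543 ± 54.4 on array 2 and 590 ± 59.1 on array 1 (probe A_51_P237865). No negative control spot reached it on either array. The level was 0.96 on array 2 and 1.05 on array 1, a difference of -0.09 ± 0.20, within its error. Il13, which acts on epithelium and fibroblasts, had a signal of 19.8 ± 3.30 on array 2 and 19.1 ± 3.33 on array 1 (probe A_51_P194823). Its spot median was 52 over a local background of 27 on array 2, and 51 over 29 on array 1. Il13 was the gene nearest to the floor among those above it, 0.75 above it on array 2 and 0.71 on array 1 on the log2 scale, and its difference was 0.08 ± 0.35.

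Il5, the growth factor of eosinophils, was the one whose difference exceeded its error among the 6 cytokine genes well above background on both arrays. Its signal was 26.3 ± 3.61 on array 2 and 39.6 ± 4.67 on array 1 (probe A_51_P185415). The spot median was 58 over a local background of 27 on array 2, and 74 over 28 on array 1. The difference was -0.56 ± 0.26, so that array 2 held 67.9% of the level of array 1. This lay inside the spread of dim probes, since the middle 95% of 6942 probes above background with a mean signal of 15 to 60 ran from -0.78 to 0.96, and with normexp background correction the difference was -0.20. Gata3, the lineage factor of type 2 cells, was at 7.34 on array 2 and 7.32 on array 1 (0.02 ± 0.20).

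**Figure D1:**
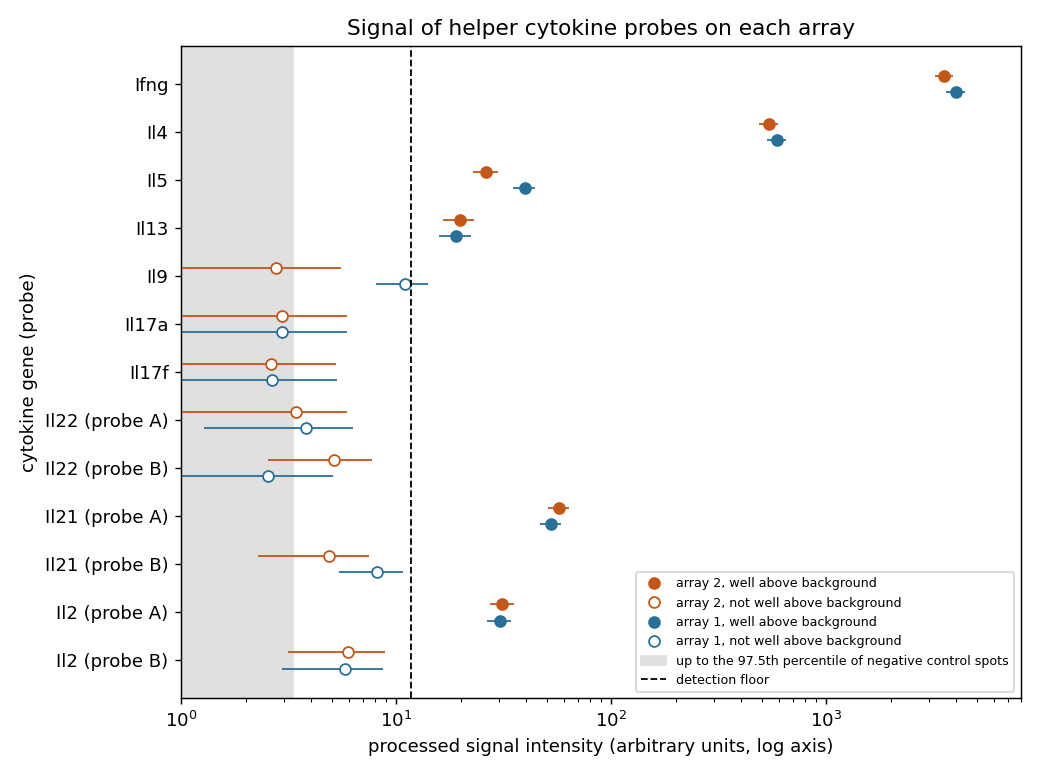
Processed signal of each of the 13 probes (horizontal log axis, arbitrary units) on array 2 and array 1, with the scanner's error (left ends stop at 1), grouped by type of helper cell; for genes with 2 probes, A is the one that was brighter on array 1. Ifng and Il4 stand far to the right, 4 probes sit between the detection floor and 60, and the 7 open probes lie left of the floor on both arrays.

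Receptors and responses on the type 2 side were mixed. Il4ra, the shared receptor chain for IL-4 and IL-13, was at 0.66 on array 2 and 0.33 on array 1 (0.33 ± 0.15), and Il13ra1 at 0.07 and -0.27 (0.34 ± 0.20). The decoy receptor gene Il13ra2 was well above background on neither array. Il5ra was so on array 2 only, 1.38-fold above the floor of array 1, with no spot error taken off. Of 15 genes known to be induced by IL-4 and IL-13, mostly in macrophages, 10 were measured on both arrays, beside 60% of all named genes. The median difference of the 10 was 0.10, and 8 were higher in array 2, beside 53.8% of all genes measured on both arrays. Chil3, a chitinase-like protein of macrophages, differed by 0.92 ± 0.21, the adhesion gene Cdh1 by 0.50 ± 0.21, the chemokine gene Ccl24 by -0.49 ± 0.21 and Retnla, another macrophage product, by 0.36 ± 0.21. Ccl11, Ccl22, Ccl26, Alox15 and Fcer2a were well above background on neither array.

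Il9, a growth factor for mast cells, was well above background on neither array, and its probe A_51_P367070 lay just under the floor on array 1 but far under it on array 2. It had a signal of 2.77 ± 2.78 on array 2, no larger than its error, and of 11.0 ± 2.98 on array 1, where the floor was 11.6. The raw spot median was 29 over a local background of 26 on array 2, and 37.5 over 24 on array 1. Of the 308 negative control spots, 42 on array 2 and 1 on array 1 were at least as bright. The scanner flagged the probe as positive and significant on array 1 and not on array 2. No fold is given, since both values are below the floor. The receptor gene Il9r was well above background, at 0.28 on array 2 and 0.16 on array 1. Spi1, which promotes the type 9 fate, lay close to the floor, at -4.07 on array 2 and -4.11 on array 1.

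The 3 effector cytokine genes of type 17 cells had signals of 5.14 or less on both arrays, below the floors. Il17a, which recruits neutrophils through epithelial chemokines, had a signal of 2.93 ± 2.94 on array 2 and 2.94 ± 2.95 on array 1, and after subtraction of background its signal was negative on both, at -2.59 and -2.96. Il17f, its neighbour and relative on chromosome 1, had a signal of 2.63 ± 2.63 on array 2 and 2.65 ± 2.67 on array 1. Of the 308 negative control spots, 11 on array 2 and 17 on array 1 were at least as bright as the Il17a probe, and 114 and 117 as bright as the Il17f probe. For neither gene was the signal larger than its error. Il22, which acts on epithelial repair, had 2 probes. Probe A_55_P2199202 gave 3.42 ± 2.52 on array 2 and 3.80 ± 2.53 on array 1, and A_52_P177054 gave 5.14 ± 2.61 on array 2 and 2.54 ± 2.55 on array 1. Of the negative control spots, 8 on array 2 and 5 on array 1 were as bright as the first of these probes, and 5 and 182 as bright as the second. Il22 lies on chromosome 10 as Ifng does, with its close relative Iltifb as the one protein-coding gene between them, and whether the Il22 probes also bind Iltifb transcripts was not tested.

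The receptor genes Il17ra (0.79 on array 2 and 0.70 on array 1) and Il17rc (-0.39 and -0.72) were well above background, and Il22ra1 was close to the floor at -4.28 on each array. Of 16 genes known to be induced by IL-17 and IL-22, 11 were measured on both arrays, beside 60% of all named genes. The median difference of the 11 was 0.19, and 9 were higher in array 2, beside 53.8% of all genes measured on both arrays. The largest differences were those of Il6 (0.82 ± 0.15), the chemokine gene Cxcl1 (0.64 ± 0.28) and the neutrophil genes S100a9 (0.39 ± 0.20) and S100a8 (0.28 ± 0.20). Reg3b, Reg3g, Csf3, Fut2 and Il24 were well above background on neither array.

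Il21 and Il2 lie near each other on chromosome 3 with no protein-coding gene between them, and each was detected by 1 of its 2 probes. Il21, which helps B cells in germinal centres, had a signal of 56.9 ± 6.37 on array 2 and 52.7 ± 5.999 on array 1 with probe A_55_P2106121, a difference of 0.14 ± 0.23. Its other probe, A_55_P2744827, gave 4.87 ± 2.60 on array 2 and 8.10 ± 2.69 on array 1, under the floor on both. With that probe included and no filter on dim probes the difference of Il21 turned to -0.28. Il2 had a signal of 31.2 ± 4.004 on array 2 and 30.4 ± 3.96 on array 1 with probe A_51_P114222, a difference of 0.07 ± 0.26. Its other probe, A_55_P2935935, gave 5.98 ± 2.84 on array 2 and 5.80 ± 2.84 on array 1. The probes of both genes therefore disagreed on detection in the same way on both arrays, and which parts of the transcripts they cover is not given in the files used here.

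The lineage factor of follicular helper cells, Bcl6, was at 3.66 on array 2 and 3.56 on array 1 (0.10 ± 0.20). The receptor for IL-21, Il21r, was at 4.07 on array 2 and 3.94 on array 1. The 3 chains of the IL-2 receptor were all bright, with Il2ra at 5.01 on array 2 and 4.89 on array 1, Il2rb at 6.03 and 5.98, and Il2rg at 6.83 and 6.78.

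Between the arrays, none of the 6 measured cytokine genes reached a 2-fold difference in either direction. Over all genes measured on both arrays, 184 (1.34%) lay past this limit as higher in array 2 and 12 (0.0873%) as lower, together 1.43%. These counts were 28 and 0 with normexp background correction, and 84 and 1 among genes at 4 times the floor or more. Of the 6, Il13, Il2 and Il21 were nominally higher in array 2 and Ifng, Il4 and Il5 lower, and the median difference was -0.01, beside 0.01 over all genes. The differences of Ifng and Il4 lay within the middle 95% of 11186 probes with a mean signal of 300 to 6000, which ran from -0.28 to 0.37.

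**Figure D2:**
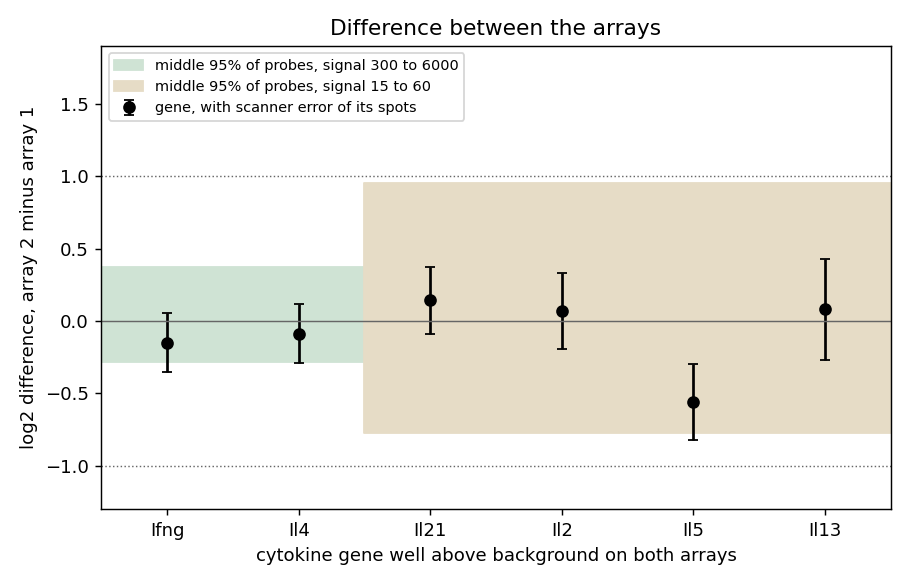
Log2 difference of array 2 minus array 1 (vertical axis) for the 6 genes well above background on both arrays, with the scanner's error as bars; shading gives the middle 95% of all probes of similar signal and dotted lines mark 2-fold. All 6 points lie within the shading, and the bar of Il5 alone does not reach 0.

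The detection of the cytokines can be set beside that of genes around them. Over all named genes 60% were well above background on both arrays. Of 25 other T cell cytokines and related ligands, 20 were well above background on both arrays, among them Il10 (1.78 on array 2 and 2.09 on array 1), Csf2 (-0.29 and 0.14) and Ebi3 (5.07 and 5.09). Il3, Il12a, Il24 and Il31 were well above background on neither array. Cd40lg, the ligand that T cells offer to B cells, was so on array 1 only, 1.67-fold above the floor of array 2, with no spot error taken off. The median difference of this list was -0.07, with 15 of 20 lower in array 2, beside 46.2% of all genes measured on both arrays. Its largest differences were 0.82 ± 0.15 for Il6, -0.43 ± 0.20 for Csf2, -0.43 ± 0.20 for Lta and -0.40 ± 0.14 for Tnfsf11. Of 17 receptor genes 14 were measured on both arrays, with a median of 0.07. Of 21 lineage transcription factors 20 were, with a median of 0.07, and of these only Eomes, shared by type 1 and killer cells, passed 2-fold (1.19 ± 0.26), while Hlx was well above background on neither array.

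**Figure D3:**
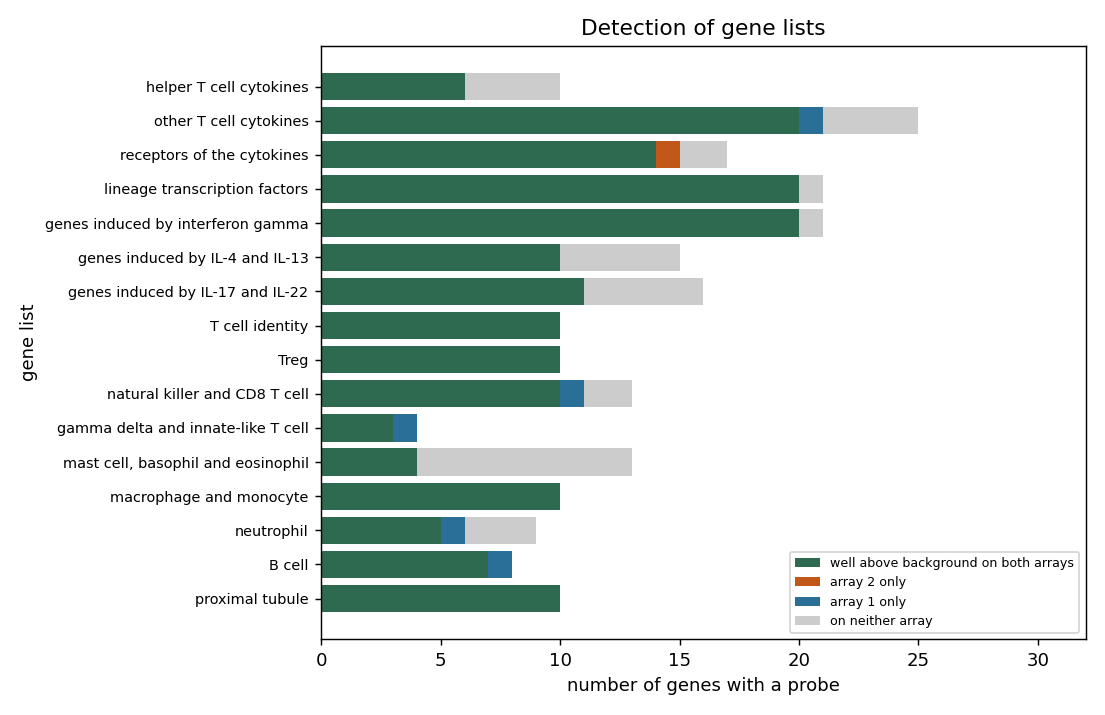
Number of genes with a probe in each list (horizontal axis), split by whether they were well above background on both arrays, on 1 array only or on neither. Helper cytokines were split 6 to 4, all lineage transcription factors but 1 were above background, and 9 of 13 mast cell, basophil and eosinophil genes were not. Over all named genes 60% were above background on both arrays.

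Other cells that transcribe these cytokine genes could add to the RNA, and their markers were read on the same arrays. The gate for CD3e, CD4 and FoxP3-hCD2 is meant to leave out natural killer cells, CD8 T cells, mast cells, basophils and eosinophils. How fully the sort did so was not tested. Over all named genes 60% were well above background on both arrays. Of 13 natural killer and CD8 T cell genes, some of which T cells of other kinds also express, 10 were measured on both arrays. Each summed signal, here and below, takes all genes of a list with a probe, also those below background. It is given in units of the 75th percentile. For this list it was 63.9 on array 2 and 59.1 on array 1, of which Nkg7 made up 44.0 and 42.1. The CD8 gene Cd8b1, with 1 probe, was at 3.76 on array 2 and 3.56 on array 1, and Cd4 at 3.20 and 3.21. Cd8a, with 2 probes, was at -1.04 and -1.25, and Gzma at 1.94 and 1.70. Levels of different genes were not ranked as amounts of RNA, since brightness also depends on the probe. Klre1 passed on array 1 only, and Ncr1 and Klra4, receptors of natural killer cells, were well above background on neither array. The median of this list was 0.21, and its largest differences were 1.92 ± 0.27 for Klra8, from 1 of its 3 probes, 1.19 ± 0.26 for Eomes and 0.77 ± 0.21 for the granzyme gene Gzmk. On array 1 Klra8 (-3.56) and Eomes (-3.47) were dim, under 4 times the floor. Above background on neither array were 8490 of 22911 named genes. Of 13 mast cell, basophil and eosinophil genes, which mark cells that make Il4 and Il13, 9 were above background on neither array, among them Mcpt8, Cpa3, Fcer1a and Ms4a2. The others were well above background on both arrays. Of these, Hdc was at -0.72 on array 2 and -0.77 on array 1, Tpsb2 at -2.94 and -3.33, and Siglecf at -4.14 and -3.68. The summed signal of this list was 2.57 on array 2 and 2.61 on array 1, of which Ccr3 made up 1.67 and 1.75. Of 6 genes of gamma delta and innate-like T cells 4 had a probe. Above background on both arrays were 3 of them, with a median of 0.43. The summed signal of the 4 was 0.553 on array 2 and 0.467 on array 1. The part of these cells in the cytokine signals was not tested.

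Markers of further cells outside the gate were also present. The share of all named genes above background on both arrays was 60%. All 10 macrophage and monocyte genes passed on both arrays, and their median difference was 0.30. Their summed signal was 136 on array 2 and 121 on array 1, but Ly6c2, which T cells can also express, made up 115 and 104 of it, and the other 9 genes summed to 21.6 and 17.0. All 10 proximal tubule genes were above background too, with 167 on array 2 and 81.4 on array 1 (74.2 and 33.8 without Kap, the brightest) and a median of 1.18, the highest among these being Slc5a2 at 1.59 ± 0.15. Of the 9 neutrophil genes with a probe 5 were, with a median of 0.28. The sum over all 9 ran the other way, at 71.4 on array 2 and 75.3 on array 1, because Csf3r made up 60.9 and 67.0 of it. Without Csf3r it was 10.5 and 8.28. Of 8 B cell genes 7 were (median -0.31). The sum over all 8 was 10.3 on array 2 and 10.6 on array 1, or 5.52 and 4.68 without Cd79b. The T cell identity genes had a median of -0.02 and the Treg genes of -0.04, so the lists of the sorted cells differed less between the arrays than those of macrophages and proximal tubule. The part of these cells in the values of the cytokines and of the genes that cytokines induce was not tested.

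**Figure D4:**
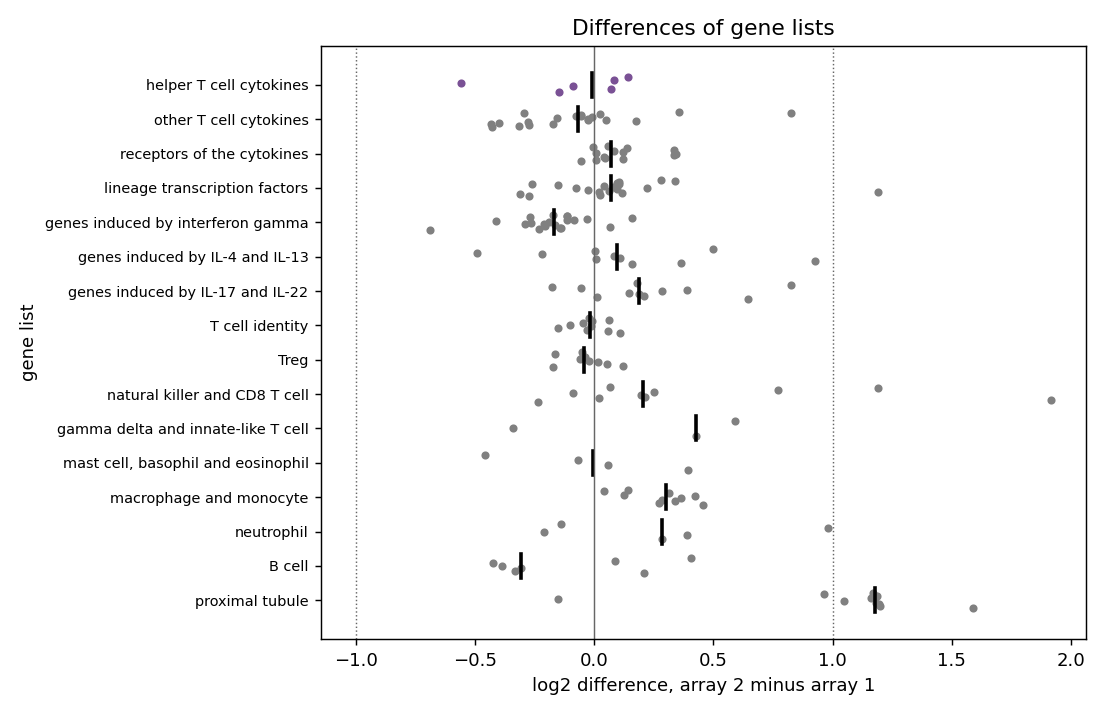
Log2 difference of array 2 minus array 1 (horizontal axis) for each gene well above background on both arrays, by list; black bars are medians and dotted lines mark 2-fold. The 6 helper cytokines, in purple, lie between -0.56 and 0.14, while 8 of 10 proximal tubule genes lie past 2-fold.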

How the data were processed

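Total RNA was labelled with Cy3 and hybridised to 1 array per lot. The scans were read with Agilent Feature Extraction 10.7.1.1, per the submitters' processing notes. Per the file headers, the deposited processed signal intensity was corrected for background and detrended within each array, with no normalisation between arrays. Raw spot and background intensity and, as other values, flags of 0 or 1 were also deposited. The value table that was deposited holds a linear ratio, with column medians of 0.069 and 0.070, which equalled the processed signal over a constant of each array. Its making by the authors is not given in the sources.

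Signals were log2-transformed after dividing by the 75th percentile over non-control probes. The 3671 control spots per array were left out, and so were outlier spots (56 on array 2 and 75 on array 1), and no spot was saturated. Of 56605 probes, 32994 (58.3%) received 1 symbol through RefSeq accessions (GRCm38.p6, used for names, promoters and gene order, since the array files name another build). Differences of genes were averaged over those of their probes that passed on both arrays, and the error combined the scanner's spot errors, which hold no variation between mice or lots. For a gene on 1 array only, a fold was taken against the other array's floor, with no spot error taken off. The number of arrays limits the precision. Python 3.11.15, pandas 2.3.3 and limma 3.58.1 (normexp, offset 50) were used, and the steps were tested on simulated data.

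The 10 genes and the lists (6 of pathways, 9 of markers) were chosen with earlier results of these data known. Named were all 10 genes, Foxp3, Cd3e, Cd4, Tbx21, Gata3 and Bcl6, receptors, the members with the largest differences of each list (at most 4) and, where 5 or fewer, members above background on neither array. One further gene that the rule named is not reported here. Other names, and the motifs, were chosen after their values were seen. Alternatives covered background correction, scaling, source of values, probes per gene, filters, fold limits and the detection rule. No search for genes of like pattern was made, since there are 2 arrays.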

Additional observations from a re-analysis of the deposited data

How the results depend on the processing

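The differences of the 6 cytokine genes moved by less than their error in 52 of 57 recalculations. Apart from the value table, whose crossed columns turn every sign by construction (0.15 for Ifng, 0.56 for Il5 and -0.14 for Il21), the exceptions were Il5 with normexp (-0.20) and Il21 with no filter on dim probes (-0.28). The signs of Il2, Il4 and Il13 turned with the value table too. These still count among the 52, because the differences were too small to move past their errors. Part of the agreement was fixed in advance, because each of the 6 genes had 1 probe that passed on both arrays. Taking the brightest probe or a stricter filter could not change such a value, and keeping outlier spots left all 6 unchanged. Scaling by another constant of the array, or not at all, shifts every gene by the same amount, here less than these errors. Those recalculations could therefore not count as moved. The number of cytokine genes detected on both arrays was 7 with the scanner's flag for a positive and significant signal, which added Il22, and 4 when every probe of a gene had to pass, beside 70.4% and 53.8% of all named genes. It was 3 (Ifng, Il4 and Il21) at 4 times the detection floor, 2 (Ifng and Il4) above the highest negative control spot and 3 above the median plus 3 SD of these spots, beside 51.6%, 40.4% and 53.3% of all. Without the 1 bright negative control spot per array, an alternative chosen after seeing the data, both of the last rules gave 6, beside 61.9% and 67.3% of all. The dim genes Il5, Il13, Il2 and Il21 each failed at least 1 rule, while Ifng and Il4 passed each rule tried.

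Genes 2-fold or more higher in array 2 and in array 1 numbered 28 and 0 with normexp, 13 and 186 with the value table by its labels, 648 and 399 with no filter on dim probes, and 84 and 1 at 4 times the floor. They numbered 709 and 112 at a limit of 1.5-fold, and 9 and 2 at 4-fold. Other scalings shifted the median of all genes to between -0.04 and 0.02. List medians moved by less than the spread of their members in 125 of 134 recalculations. Of the other 9, 8 came from the crossed value table, and the B cell median became 0.09 at 4 times the floor. The crossed value table turned the remaining list medians too, but by less than that spread. Scaling by another constant, or not at all, shifted all list medians alike. Naming probes by a gene name column was not run, because the files used here name probes by accession. No paired analysis was possible because each lot has 1 array. Depth of signal limits the 4 dim genes, whose signals lay under 60.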
